A study of Mus musculus with 26 samples.

Results

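Ribosome pull-downs of mouse gonadotropin-releasing hormone (GnRH) neurons were examined for 10 genes of the signals that carry metabolic state to the brain: Pomc, Agrp, Npy, Mc3r, Mc4r, Npy1r, Lepr, Insr, Igf1r and Irs4. They were chosen by name, as the melanocortin, neuropeptide Y, leptin, insulin and insulin-like growth factor (IGF) genes, and are 10 of the 23107 genes counted. All 10 were found and passed the filter on low counts in every fit, among the 16713 genes tested over all libraries. The mice were offspring of homozygous GnRH CRE males and homozygous females with a floxed stop before L10a-GFP, so that a GFP-tagged ribosomal protein is made where the GnRH promoter has driven Cre. Every group carried both transgenes, and no library here came from mice without Cre. Preoptic area punches came from adults 55 to 165 days old, and each of 13 pools of 5 to 7 mice gave an immunoprecipitate, the RNA on tagged ribosomes, and a supernatant, the RNA left behind. The 8 groups are both fractions of intact females in diestrus (3 pools), ovariectomized females (3 pools), intact males (4 pools) and orchidectomized males (3 pools). A library is named below by its condition and the replicate number in the labels, which starts at 0.

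Reproduction is gated by energy stores, and GnRH neurons are the last common step of that gate in the brain. Leptin from fat and insulin from the pancreas act on neurons of the arcuate nucleus, of which one class makes proopiomelanocortin (Pomc) and another makes agouti-related peptide (Agrp) and neuropeptide Y (Npy). Peptides cut from proopiomelanocortin activate the melanocortin receptors Mc3r and Mc4r, agouti-related peptide blocks them, and neuropeptide Y acts through Npy1r among other receptors. The insulin receptor (Insr) and the IGF receptor (Igf1r) are tyrosine kinases that signal through insulin receptor substrates, of which Irs4 is abundant in the hypothalamus, and the leptin receptor (Lepr) signals through Jak2 and Stat3. Cell bodies of Pomc and Agrp neurons lie outside the preoptic area, whereas their fibres reach it.

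Total counts ran from 27217253 to 56668582 per library. Gnrh1, the transcript that defines the targeted cells, ranged from 3174 to 20931 CPM (counts scaled to library size after TMM normalization) in the immunoprecipitates and from 47.5 to 1579 CPM in the supernatants, the highest supernatant being that of intact female replicate 2. Gnrh1 was higher in the immunoprecipitate of 13 of 13 pools, with a median log2 ratio of 6.46. The ratio was 1.01 in intact female replicate 2 and 3.487 or more in every other pool. The labels number the libraries. Numbers 1 to 10 hold 4 pools of intact mice (replicates 0 and 1 of each sex, 6 or 7 mice per pool) and numbers 11 to 30 the other 9 pools, so the numbering is partly confounded with gonadectomy. Among those 9, the ovariectomized pools held 7 mice each and the intact and orchidectomized pools 5. Pool size thus cannot be told apart from sex among gonadectomized mice, or from ovariectomy within numbers 11 to 30. Gnrh1 stood between 16896 and 20931 CPM in the immunoprecipitates numbered 1 to 10 and between 3174 and 8774 CPM in those numbered 11 to 30. Of the marker lists, 8 of 10 GnRH neuron markers, Gnrh1 among them, and 6 of 10 endothelial markers were higher in the immunoprecipitate, against 21.3% of all genes. Lower were 10 of 10 oligodendrocyte, 8 of 10 astrocyte and 6 of 10 microglial markers, against 21.6% of all genes. Of 10 markers of ependyma, tanycytes and choroid plexus, 1 was higher and 3 were lower. Median sums in immunoprecipitates and supernatants were 1504 and 2725 CPM for oligodendrocyte, 1004 and 1441 for astrocyte, and 48.0 and 89.5 for microglial markers. Transcripts listed for other cells thus remained in the immunoprecipitates, and their part in the members' values was not tested. The immunoprecipitate of orchidectomized male replicate 0 held the highest summed astrocyte markers (2799 CPM, next 1239.6) and endothelial markers (357 CPM, next 109.5), and the supernatant of intact male replicate 3 the highest blood markers (1166 CPM, next 60.6).

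The promoters of the 3 members with the lowest adjusted p between the fractions are shown to place the genes in the genome, as the 150 bases before the RefSeq start of each (GRCm38.p6, plus strand, written 5′ to 3′), at chr12:3954795-3954944 for Pomc, chr6:49822560-49822709 for Npy and chr2:172248342-172248491 for Mc3r. Capitals mark matches on either strand to 3 core promoter motifs, the TATA box (letters TATAAA), the GC box (letters GGGCGG) and the box named for its letters CCAAT.
Pomc: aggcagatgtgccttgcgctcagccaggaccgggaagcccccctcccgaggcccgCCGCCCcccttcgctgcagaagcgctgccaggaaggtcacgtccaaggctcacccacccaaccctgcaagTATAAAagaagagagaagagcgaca
Npy: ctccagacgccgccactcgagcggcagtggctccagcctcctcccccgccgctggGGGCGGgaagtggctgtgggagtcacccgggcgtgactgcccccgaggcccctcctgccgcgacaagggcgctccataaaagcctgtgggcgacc
Mc3r: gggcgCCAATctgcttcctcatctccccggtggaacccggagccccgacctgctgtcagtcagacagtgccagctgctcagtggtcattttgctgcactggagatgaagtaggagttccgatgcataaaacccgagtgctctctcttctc
The Pomc window has matches to TATAAA near the start and to GGGCGG on the minus strand, that of Npy to GGGCGG and that of Mc3r to CCAAT, and no match overlaps another. Of 32851 mouse promoter windows of the same length, 7.57% held TATAAA, 28.6% GGGCGG and 24.5% CCAAT. The letters TGACG (the core of a cAMP response element, 13.3% of windows), TTCNNNGAA (the form STAT proteins bind, 4.09%) and GTAAACA (a forkhead site, 1.80%) are in none of these 3 windows. RefSeq promoters were matched for 7 of the 10 members. In GENCODE vM21 (GRCm38) Pomc spans chr12:3954951-3960642, Npy chr6:49822710-49829507 and Mc3r chr2:172248492-172251114. The annotated span of Agrp overlaps those of 7 genes, 5 of them on the other strand, Ctcf among these. Without strand, reads from a stretch that 2 genes share cannot be told apart, so the low Agrp values are uncertain. Insr overlaps 2 annotated genes and Irs4, which is X-linked, 1 antisense gene.

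Per kilobase of exon, Npy had the highest level of the 10 in both fractions. In the supernatant, Npy averaged 28.8 ± 7.82 CPM per kb (SD, n = 13 pools), followed by Irs4 at 8.71 ± 2.54, Pomc at 4.76 ± 2.26 and Npy1r at 4.01 ± 0.866. Pomc and Npy1r overlapped within their spread. Mc4r stood at 2.19 ± 0.634 CPM per kb, Mc3r at 1.07 ± 0.363, Insr at 1.06 ± 0.268 and Igf1r at 0.908 ± 0.243, and Mc3r, Insr and Igf1r did not differ beyond their spread. Agrp (0.609 ± 0.2002) and Lepr (0.367 ± 0.116) were the lowest. In the immunoprecipitate the order of level began with Npy at 20.7 ± 5.64 CPM per kb, Pomc at 9.20 ± 5.96 and Irs4 at 5.65 ± 1.74. Mc3r had moved from the sixth place to the last, at 0.266 ± 0.339 CPM per kb, within the spread of Lepr (0.303 ± 0.227). Pools differed more in the immunoprecipitate: the coefficient of variation of CPM over 13 pools was higher there than in the supernatant for 10 of 10 members, from 27.3% against 27.1% for Npy to 128% against 33.9% for Mc3r.

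**Figure D1:**
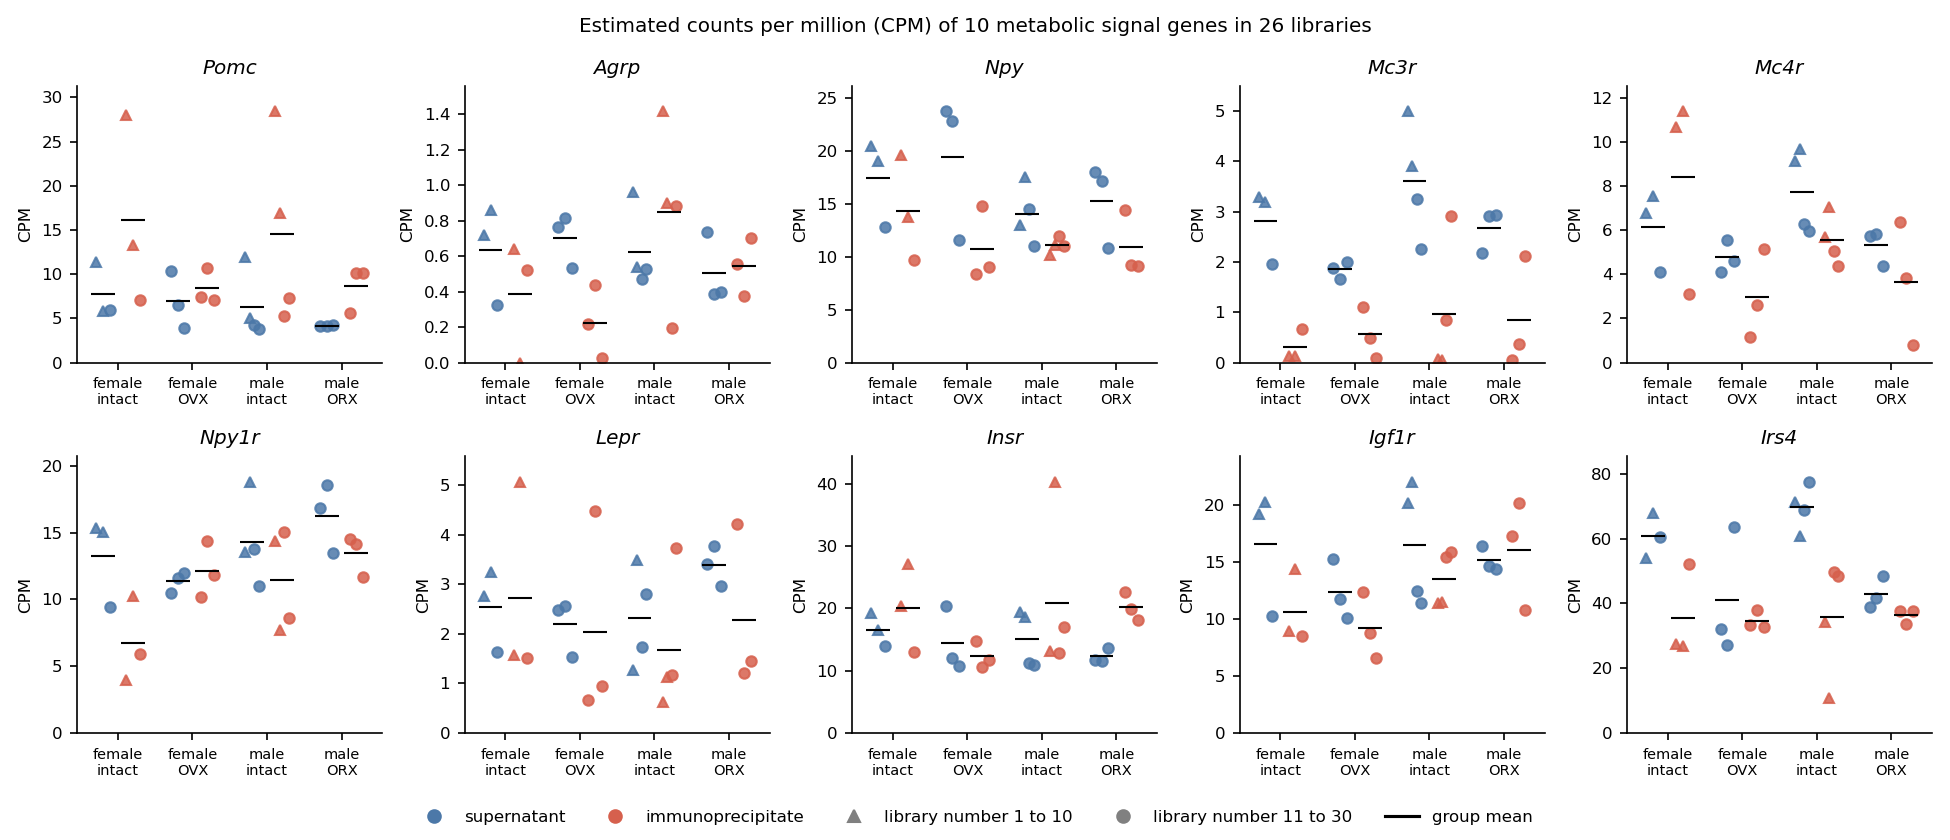
CPM of each gene (y axis, linear from 0) in every library, by condition (x axis; OVX, ovariectomized; ORX, orchidectomized), with supernatants in blue, immunoprecipitates in red, libraries numbered 1 to 10 as triangles and black lines for group means. Mc3r immunoprecipitates numbered 1 to 10 lie near 0, and the highest Pomc values are immunoprecipitates with these numbers.

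The first comparison asked which of these transcripts are richer on the ribosomes of GnRH neurons than in the tissue left behind. Pomc rose 1.87-fold in the immunoprecipitate, whereas Mc3r fell 4.31-fold, Irs4 1.47-fold, Npy 1.41-fold and Npy1r 1.29-fold. No difference passed for Agrp, Mc4r, Lepr, Insr or Igf1r. Of the 10, 1 was higher and 4 were lower at an adjusted p under 0.05, and of all genes tested 21.3% were higher and 21.6% lower, so the 5 of 10 members that passed in either direction are near the share of all genes. The median log2 fold of the 10 was -0.34 and that of all genes -0.06. In RNA of a tissue, fewer cells of a type and less RNA per cell cannot be told apart.

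Among the ligands, Pomc, the precursor of the melanocortin peptides, rose. Its immunoprecipitates read 28.1, 13.3 and 7.03 CPM in intact females, 7.39, 10.7 and 7.07 in ovariectomized females, 28.4, 16.97, 5.30 and 7.36 in intact males, and 5.64, 10.1 and 10.1 in orchidectomized males, in order of replicate number. The supernatants read 11.4, 5.87 and 5.94 CPM in intact females, 10.4, 6.53 and 3.94 in ovariectomized females, 11.9, 5.07, 4.24 and 3.76 in intact males, and 4.15, 4.11 and 4.30 in orchidectomized males. The 4 highest immunoprecipitates are the 4 numbered 1 to 10, and the fractions were apart in orchidectomized males only. The share of all genes whose fractions lie apart within a condition was not counted, here or for the members below. Pomc was higher in the immunoprecipitate of 12 of 13 pools, the exception being ovariectomized female replicate 0 (log2 0.90 ± 0.27 SE, adjusted p = 0.00903 by edgeR's quasi-likelihood test with Benjamini-Hochberg adjustment, which gives every adjusted p below unless another tool is named). With the pool as a block the value was 0.84, and leaving out 1 library at a time gave 0.75 to 1.03. Summed markers of arcuate neurons also stood higher in the immunoprecipitates numbered 1 to 10 (378 to 487 CPM) than in the later ones (247 to 305 CPM). In the supernatants the same sums had a median of 439.9 CPM in libraries 1 to 10 and 322 CPM in the later ones, where 1 library reached 505 CPM. Of that list of 12 genes, 11 were tested, and 1 was higher and 3 were lower in the immunoprecipitate. Whether these genes mark arcuate rather than preoptic cells in these punches, and their part in the Pomc result, was not tested. Pituitary markers, from the other main source of Pomc, summed to 0.0920 to 5.87 CPM over 12 genes in the immunoprecipitates and to 0.259 to 1.38 CPM in the supernatants. The highest 2 sums were those of the immunoprecipitates of intact male replicate 1 and intact female replicate 1 (3.95 CPM), both numbered 1 to 10. Of the 12 genes 4 were tested, 1 (Cga) was higher in the immunoprecipitate and 0 lower (median log2 0.39), and Fshb and Pou1f1 stood at 0 in every library of both fractions. Their part in the Pomc result was not tested either.

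Npy, an orexigenic peptide that the Agrp neurons of the arcuate nucleus also make, fell. Which cells of the punches held Npy was not tested. Its supernatants read 20.5, 19.03 and 12.8 CPM in intact females, 23.7, 22.8 and 11.5 in ovariectomized females, 12.98, 17.6, 14.5 and 10.99 in intact males, and 17.9, 17.1 and 10.8 in orchidectomized males. The immunoprecipitates read 19.6, 13.8 and 9.65 CPM in intact females, 8.37, 14.8 and 8.97 in ovariectomized females, 10.1, 11.1, 11.9 and 10.996 in intact males, and 14.4, 9.23 and 9.10 in orchidectomized males. The fractions overlapped in every condition, yet within pools the immunoprecipitate was lower in 12 of 13 and equal to 3 significant digits in intact male replicate 3 (log2 -0.49 ± 0.15 SE, adjusted p = 0.0110). Leaving out 1 library kept it between -0.57 and -0.42, called each time. Agrp, the antagonist of the melanocortin receptors, was near the limit of the counts, with 18 to 39 counts per supernatant and 0 to 58 per immunoprecipitate. It ranged from 0.323 through a median of 0.537 to 0.959 CPM in the supernatants and from 0 through 0.524 to 1.42 CPM in the immunoprecipitates. The library at 0, intact female replicate 1, allows up to 0.0631 CPM (3 counts). No difference passed (log2 -0.45 ± 0.47 SE, adjusted p = 0.467), with 5 pools higher and 8 lower.

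Of the melanocortin receptors, Mc3r fell and no difference passed for Mc4r. Mc3r supernatants read 3.30, 3.20 and 1.96 CPM in intact females, 1.89, 1.67 and 1.995 in ovariectomized females, 5.002, 3.92, 3.26 and 2.26 in intact males, and 2.18, 2.91 and 2.94 in orchidectomized males. Its immunoprecipitates read 0.133, 0.126 and 0.673 CPM in intact females, 1.104, 0.491 and 0.0989 in ovariectomized females, 0.0733, 0.0529, 0.841 and 2.91 in intact males, and 0.0585, 0.373 and 2.13 in orchidectomized males. The fractions were apart in 3 of 4 conditions and overlapped in intact males through replicate 3, the 1 pool of 13 in which Mc3r was higher in the immunoprecipitate. The fitted difference was log2 -2.11 ± 0.54 SE, adjusted p = 0.00275, and -2.93 with the pool as a block. It rests on few counts: 3 immunoprecipitates hold 2 or 3 counts, and the supernatant-to-immunoprecipitate ratio was 68.3 in intact male replicate 0 (95% counting interval 23.02 to 334, exact binomial), 74.1 in intact male replicate 1 (20.1 to 618) and 37.3 in orchidectomized male replicate 0 (10.1 to 312). Such intervals cover counting error only. Leaving out 1 library kept the log2 fold between -2.59 and -1.97, called each time.

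Mc4r, the receptor through which melanocortins curb food intake, ranged from 4.11 through 5.83 to 9.66 CPM in the supernatants and from 0.781 through 5.05 to 11.4 CPM in the immunoprecipitates (log2 -0.31 ± 0.27 SE, adjusted p = 0.365). Its immunoprecipitates in intact females read 10.7, 11.4 and 3.12 CPM against supernatants of 6.78, 7.55 and 4.13 CPM, so it was higher in replicates 0 and 1 and lower in replicate 2. In the other conditions it was higher in 2 of 10 pools. The same immunoprecipitates of intact female replicates 0 and 1 that held the highest Mc4r held 5 and 6 counts of Mc3r, against 403 and 542 of Mc4r.

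Npy1r, a receptor of neuropeptide Y, was lower at the edge of the threshold. Its supernatants ranged from 9.40 through 13.6 to 18.8 CPM and its immunoprecipitates from 3.98 through 11.7 to 15.01 CPM, lower in 10 of 13 pools (log2 -0.37 ± 0.15 SE, adjusted p = 0.0494). The lowest values were in intact females, whose immunoprecipitates read 3.98, 10.2 and 5.91 CPM against supernatants of 15.3, 15.1 and 9.40 CPM. The call was lost without a filter on low counts (adjusted p = 0.0559), with RLE size factors (0.0607) and in 19 of 26 fits that left out 1 library, the highest adjusted p being 0.102 without the immunoprecipitate of intact female replicate 0. Lepr, the leptin receptor, had 1.27 to 3.77 CPM in the supernatants and 0.635 to 5.07 CPM in the immunoprecipitates. Its immunoprecipitates split within conditions: 1 library of each condition stood at 3.74 CPM or more, and the other 9 at 1.57 or less. No difference passed (log2 -0.26 ± 0.34 SE, adjusted p = 0.567), with 4 pools higher and 9 lower. In orchidectomized males that high library was replicate 0, the one with the highest astrocyte and endothelial markers, whose part in the value was not tested.

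In insulin and IGF signalling, Irs4 fell and no difference passed for its upstream receptors. Irs4, an adaptor that Insr and Igf1r phosphorylate, had supernatants of 54.0, 68.0 and 60.4 CPM in intact females, 32.1, 27.1 and 63.5 in ovariectomized females, 71.3, 60.7, 68.8 and 77.6 in intact males, and 38.9, 41.5 and 48.4 in orchidectomized males. Its immunoprecipitates read 27.5, 26.9 and 52.2 CPM in intact females, 33.2, 38.0 and 32.6 in ovariectomized females, 34.2, 10.7, 49.8 and 48.5 in intact males, and 37.7, 33.7 and 37.6 in orchidectomized males. The immunoprecipitates lay below the supernatants without overlap in 3 of 4 conditions, with overlap in ovariectomized females, and were lower in 11 of 13 pools (log2 -0.56 ± 0.18 SE, adjusted p = 0.0128). Leaving out 1 library gave -0.63 to -0.44, called each time.

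Insr ranged from 10.8 through 13.7 to 20.4 CPM in the supernatants and from 10.6 through 16.96 to 40.4 CPM in the immunoprecipitates, higher in 9 of 13 pools (log2 0.31 ± 0.18 SE, adjusted p = 0.157). The immunoprecipitate of intact male replicate 1 held the highest Insr and, at 10.7 CPM, the lowest Irs4 of the 13. Without it the Insr difference was 0.18. Igf1r, the receptor of IGF1 and IGF2, ranged from 10.1 through 14.7 to 22.0 CPM in the supernatants and from 6.60 through 11.4 to 20.2 CPM in the immunoprecipitates, lower in 9 of 13 pools (log2 -0.32 ± 0.15 SE, adjusted p = 0.103). Leaving out the immunoprecipitate of intact female replicate 1 or the supernatant of intact female replicate 2 brought Igf1r past the threshold (adjusted p = 0.0480 and 0.0474).

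**Figure D2:**
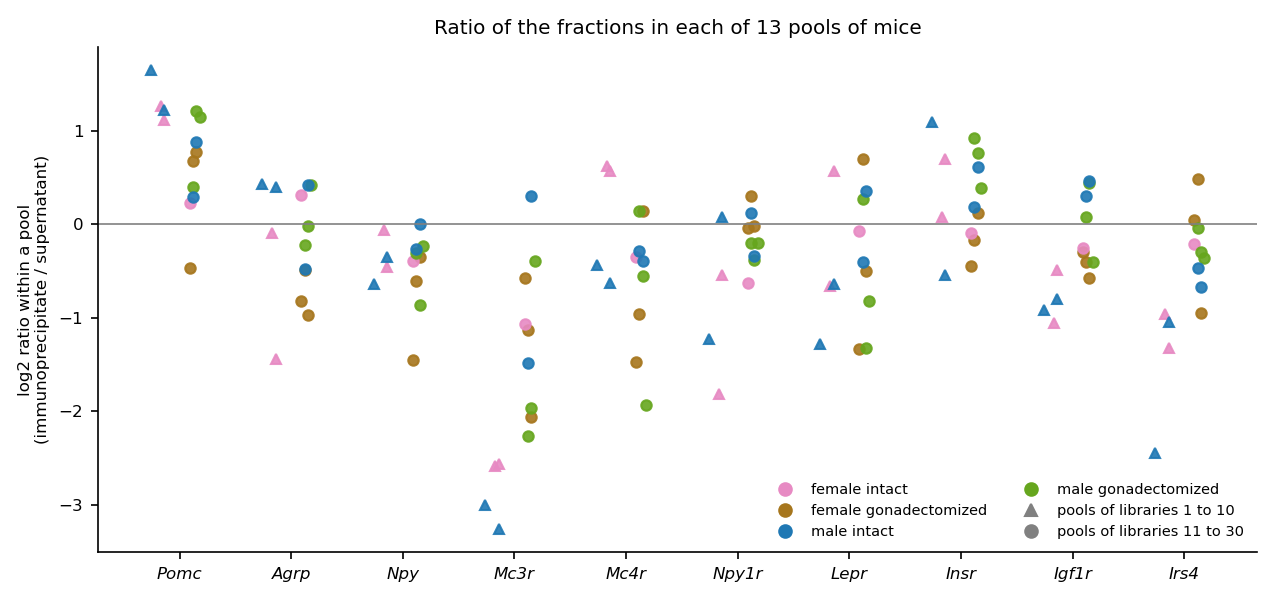
Each point is 1 pool: the log2 ratio of immunoprecipitate to supernatant (y axis, after adding 0.5 CPM to both) for each gene (x axis), coloured by condition, with pools of libraries 1 to 10 as triangles. Mc3r lies below 0 in 12 of 13 pools and Pomc above 0 in 12 of 13, and the 4 lowest Mc3r ratios are those of the early-numbered pools.

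The size of several of these differences was not the same in libraries 1 to 10 and in libraries 11 to 30. Libraries 1 to 10 hold intact mice alone, and 11 to 30 hold intact and gonadectomized mice. Numbering and gonadectomy thus cannot be told apart between the 2 fits below. Fitted on libraries 11 to 30 (the later pools), 0 of 10 members passed (against 26.5% of all genes), and fitted on libraries 1 to 10 (the early pools), 4 passed against 37.3%. In the later pools 4 members, Pomc, Npy, Mc3r and Irs4, had an unadjusted p under 0.05 by edgeR, and both fits hold fewer libraries than the fit of all 26. For Mc3r the early pools gave log2 -5.29 ± 0.55 SE, adjusted p = 3.16e-04 and the later pools log2 -1.36 ± 0.58 SE, adjusted p = 0.0980. Summed over the 4 early pools, Mc3r had 16 counts in the immunoprecipitates and 622 in the supernatants, a 39.1-fold lower level (95% counting interval 23.9 to 68.9). Over the 9 later pools it had 333 and 940 counts, 2.49-fold lower (2.19 to 2.83). The direction was the same in both sets. Among the other 3 that passed in the early pools, Pomc gave log2 1.38 ± 0.41 SE, adjusted p = 0.0333 there and log2 0.56 ± 0.22 SE, adjusted p = 0.0751 in the later pools. Irs4 gave log2 -1.31 ± 0.33 SE, adjusted p = 0.0168 and log2 -0.32 ± 0.14 SE, adjusted p = 0.118. Igf1r gave log2 -0.77 ± 0.21 SE, adjusted p = 0.0246 and log2 -0.05 ± 0.17 SE, adjusted p = 0.863. Npy stood at -0.33 and -0.48, and passed in neither set.

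The difference of the enrichment between early and later pools was itself tested within intact mice, a comparison added after the data were seen. Mc3r passed (log2 -4.30 ± 1.22 SE, adjusted p = 0.0354), as did 7.83% of all genes tested. With the pool as a block Mc3r did not pass (log2 -4.19). The call was lost in 8 of 12 fits that left out 1 library, with log2 values from -4.62 to -3.72. Irs4 (log2 -0.97 ± 0.41 SE, adjusted p = 0.162), Igf1r (log2 -0.89 ± 0.35 SE, adjusted p = 0.135) and Pomc (log2 0.88 ± 0.55 SE, adjusted p = 0.381) did not pass. Gnrh1 itself differed in the same comparison (log2 4.16 ± 0.66 SE, adjusted p = 0.00315). Summed GnRH neuron markers ran from 17381 to 21502 CPM in the early immunoprecipitates and from 3536 to 9291 CPM in the later ones, without overlap. The later side of the comparison holds 1 pool of intact females, replicate 2, whose Gnrh1 log2 ratio of immunoprecipitate to supernatant was 1.01. No fit of this comparison left out a library of that pool, so these fits cannot show whether the Mc3r difference rests on it. Numbering, pool size among intact mice and Gnrh1 level cannot be told apart here.

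**Figure D3:**
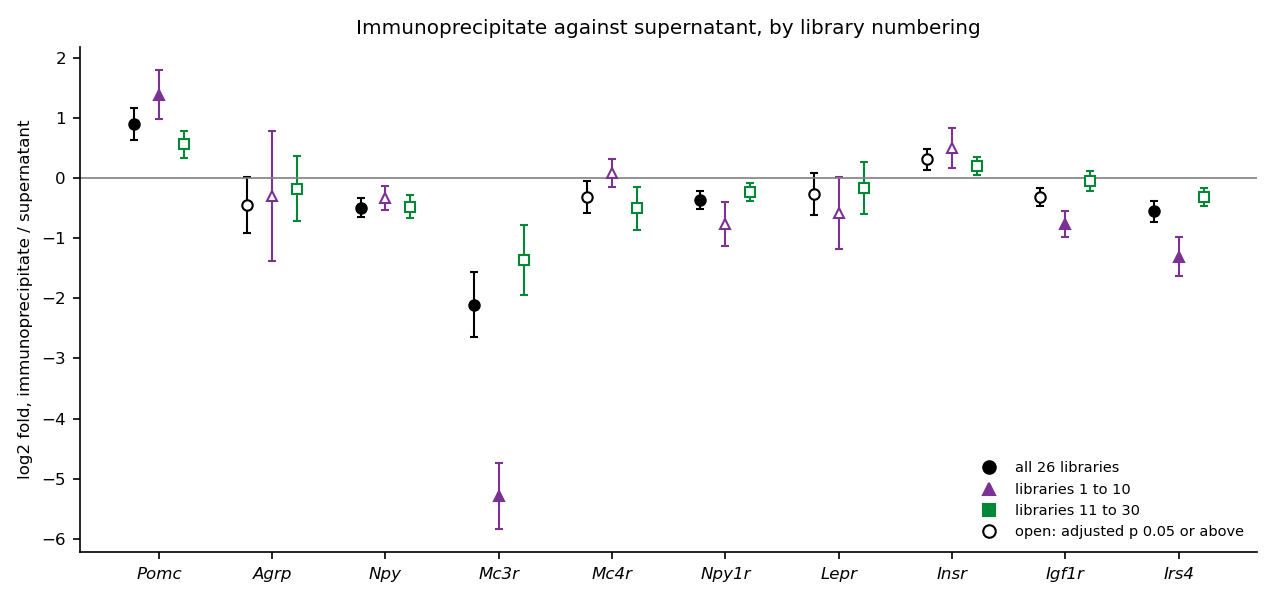
log2 fold of immunoprecipitate over supernatant (y axis; bars, standard error of the fit) for each gene, from all 26 libraries, from libraries 1 to 10 and from libraries 11 to 30; filled symbols passed an adjusted p of 0.05. Mc3r stands at -2.11, -5.29 and -1.36, and no symbol of libraries 11 to 30 is filled.

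Within single conditions, a single member passed in each set of intact mice. In intact females Npy1r fell 1.97-fold (log2 -0.98 ± 0.31 SE, adjusted p = 0.0324), 1 of 10 members against 18% of all genes, and in intact males Irs4 fell 1.94-fold (log2 -0.96 ± 0.31 SE, adjusted p = 0.0268), 1 of 10 against 25.9%. None passed in ovariectomized females (0 of 10 by edgeR and by DESeq2), where the background, or share of all genes called, was 6.28%. None passed in orchidectomized males either (0 of 10 by both tools, background 10.7%). At an unadjusted p under 0.05 by edgeR there were 1 and 0 members, against 3215 and 3911 of 16713 genes. The Npy1r call was lost in 4 of 26 fits that left out 1 library, all of intact females, and the Irs4 call in 4 of 26, all of intact males. In libraries 11 to 30 alone Npy1r stood at -0.67 in intact females, of which 1 pool is left there, and Irs4 at -0.58 in intact males, of which 2 are left. In libraries 1 to 10 alone, with 2 pools of each sex, Npy1r gave log2 -1.04 ± 0.51 SE, adjusted p = 0.193 and Irs4 log2 -1.50 ± 0.46 SE, adjusted p = 0.0539, so neither call was made in either set. Pomc in intact males stood at log2 1.22 ± 0.48 SE, adjusted p = 0.0664, and with the pool as a block it passed (log2 1.08 ± 0.31 SE, adjusted p = 0.0195). In orchidectomized males, whose pools are all numbered 11 to 30, Pomc (log2 1.05 ± 0.56 SE, adjusted p = 0.270) and Insr (log2 0.71 ± 0.36 SE, adjusted p = 0.243) had fractions without overlap and passed when only libraries 11 to 30 were fitted (adjusted p = 0.0475 and 0.0461). Mc3r was negative in all 4 conditions, at -3.17 in intact females, -1.72 in ovariectomized females, -1.89 in intact males and -1.65 in orchidectomized males, with adjusted p from 0.0598 to 0.433. In libraries 1 to 10 alone it passed in intact females (log2 -4.57 ± 0.75 SE, adjusted p = 0.00513) and in intact males (log2 -6.02 ± 0.81 SE, adjusted p = 0.00200). Npy was negative in all 4 as well, from -0.85 in ovariectomized females to -0.28 in intact females.

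Gonadectomy, which removes ovarian or testicular steroids, was compared within each fraction. No member passed in either sex: 0 of 10 in the supernatants of females (edgeR; background 0.0122%) and of males (background 0.0%), and 0 of 10 in the immunoprecipitates of females (background 0.0%) and of males (background 0.0%). DESeq2 called 0 of 10 in each. At an unadjusted p under 0.05 by edgeR there were 1, 2, 1 and 0 members in that order. The first comparison had 1196 of 16360 genes at that level. Over all genes, the 3 comparisons without a call had 446, 591 and 1509 genes at an unadjusted p under 0.05, and DESeq2 called 5, 5 and 24. Irs4 stood lower in the supernatant after gonadectomy of males, where intact pools read 71.3, 60.7, 68.8 and 77.6 CPM and orchidectomized pools 38.9, 41.5 and 48.4, without overlap (log2 -0.70 ± 0.23 SE, adjusted p = 0.99998, unadjusted p = 0.00718). Among pools numbered 11 to 30 the value was -0.75 (adjusted p = 0.529), with 2 intact pools left. In females the intact supernatants read 54.0, 68.0 and 60.4 CPM and the ovariectomized ones 32.1, 27.1 and 63.5, where replicate 2 stood apart from the other 2 (log2 -0.53 ± 0.24 SE, adjusted p = 0.653). Without that replicate Irs4 passed (log2 -0.9999, adjusted p = 0.0291), and so did 505 genes in all against 2 with it. In the immunoprecipitates Irs4 differed by -0.04 in females and 0.02 in males. With the numbering as a term these values were -0.67 and -0.40, and in libraries 11 to 30 alone -0.59 and -0.44 (unadjusted p = 0.0217 and 0.0317 by edgeR, lowest adjusted p = 0.803), all negative and none past the threshold. The change of its enrichment with gonadectomy did not pass (log2 0.72 ± 0.48 SE, adjusted p = 0.660 in males).

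Mc4r supernatants also lay apart in males, which with Irs4 makes 2 of 10 members, against 3.76% of all genes whose orchidectomized pools all lay below the intact ones. They read 9.12, 9.66, 6.28 and 5.94 CPM in intact and 5.72, 5.83 and 4.38 CPM in orchidectomized pools (log2 -0.54 ± 0.23 SE, unadjusted p = 0.0298). The 2 intact pools with the higher values are those numbered 1 to 10, and with the numbering as a term the value was -0.19 (unadjusted p = 0.258). In the immunoprecipitates of females Npy1r read 3.98, 10.2 and 5.91 CPM in intact and 10.1, 14.4 and 11.8 CPM in ovariectomized pools, with overlap of 10.2 and 10.1 CPM (log2 0.85 ± 0.39 SE, adjusted p = 0.994). Pomc read 28.1, 13.3 and 7.03 CPM and 7.39, 10.7 and 7.07 CPM in the same groups (log2 -0.94 ± 0.59 SE, adjusted p = 0.994). With the numbering as a term, its value turned from -0.94 to 0.37 in females and from -0.75 to 0.39 in males, and neither passed. Standard errors of the log2 fold in the immunoprecipitates ran from 0.35 for Npy to 1.58 for Mc3r in females.

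The sexes were compared in the same way, and no member passed: 0 of 10 between intact males and females in the supernatant (background 0.0428%) and in the immunoprecipitate (background 0.0248%), and 0 of 10 between gonadectomized mice in the supernatant (background 0.0428%) and in the immunoprecipitate (background 0.0186%). DESeq2 called 0 of 10 in each. By edgeR an unadjusted p under 0.05 was reached by 0, 0, 1 and 1 members. Over all genes it was reached by 607 of 16360, 664 of 16160, 3445 of 16360 and 1388 of 16160. In gonadectomized mice 3 of 10 members, all receptors, had male supernatants that lay above the female ones, against 13.9% of all genes. Npy1r read 16.8, 18.6 and 13.4 CPM in males and 10.5, 11.6 and 11.997 in females (log2 0.50 ± 0.21 SE, adjusted p = 0.187). Lepr read 3.41, 3.77 and 2.96 CPM and 2.47, 2.56 and 1.54 (log2 0.62 ± 0.35 SE, adjusted p = 0.323), and Mc3r 2.18, 2.91 and 2.94 CPM and 1.89, 1.67 and 1.995 (log2 0.52 ± 0.29 SE, adjusted p = 0.313). All of these pools are numbered 11 to 30. Pool size, 7 mice in each ovariectomized and 5 in each orchidectomized pool, cannot be told apart from sex here. In the immunoprecipitates 1 of 10 members, Insr, lay apart in this way, against 11.5% of all genes. It read 22.7, 19.9 and 18.1 CPM in males and 14.8, 10.6 and 11.8 in females (log2 0.71 ± 0.41 SE, adjusted p = 0.653). Between intact mice the members' log2 folds ran from -0.30 to 0.38 in the supernatant and from -0.70 to 1.63 in the immunoprecipitate. Without the supernatant of ovariectomized female replicate 2, Irs4 passed between gonadectomized sexes (log2 0.52, adjusted p = 0.0331), as did 2894 genes in all against 7 with it. The comparisons of sex and gonadectomy share groups, so they are not independent of each other.

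The change of enrichment itself was tested as a difference of differences. No member passed for gonadectomy in females (0 of 10, background 0.0%), for gonadectomy in males (0 of 10, background 0.0%) or for sex in intact mice (0 of 10, background 0.00598%). DESeq2 called 0 of 10 in each, and 1 member, Npy1r, had an unadjusted p under 0.05 for gonadectomy in females (log2 1.08 ± 0.44 SE, adjusted p = 0.664). Over all genes, the counts at an unadjusted p under 0.05 were 1248, 1364 and 740, and DESeq2 called 10, 17 and 9. So the Npy1r call in intact females was not shown to differ from ovariectomized females or from intact males.

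**Figure D4:**
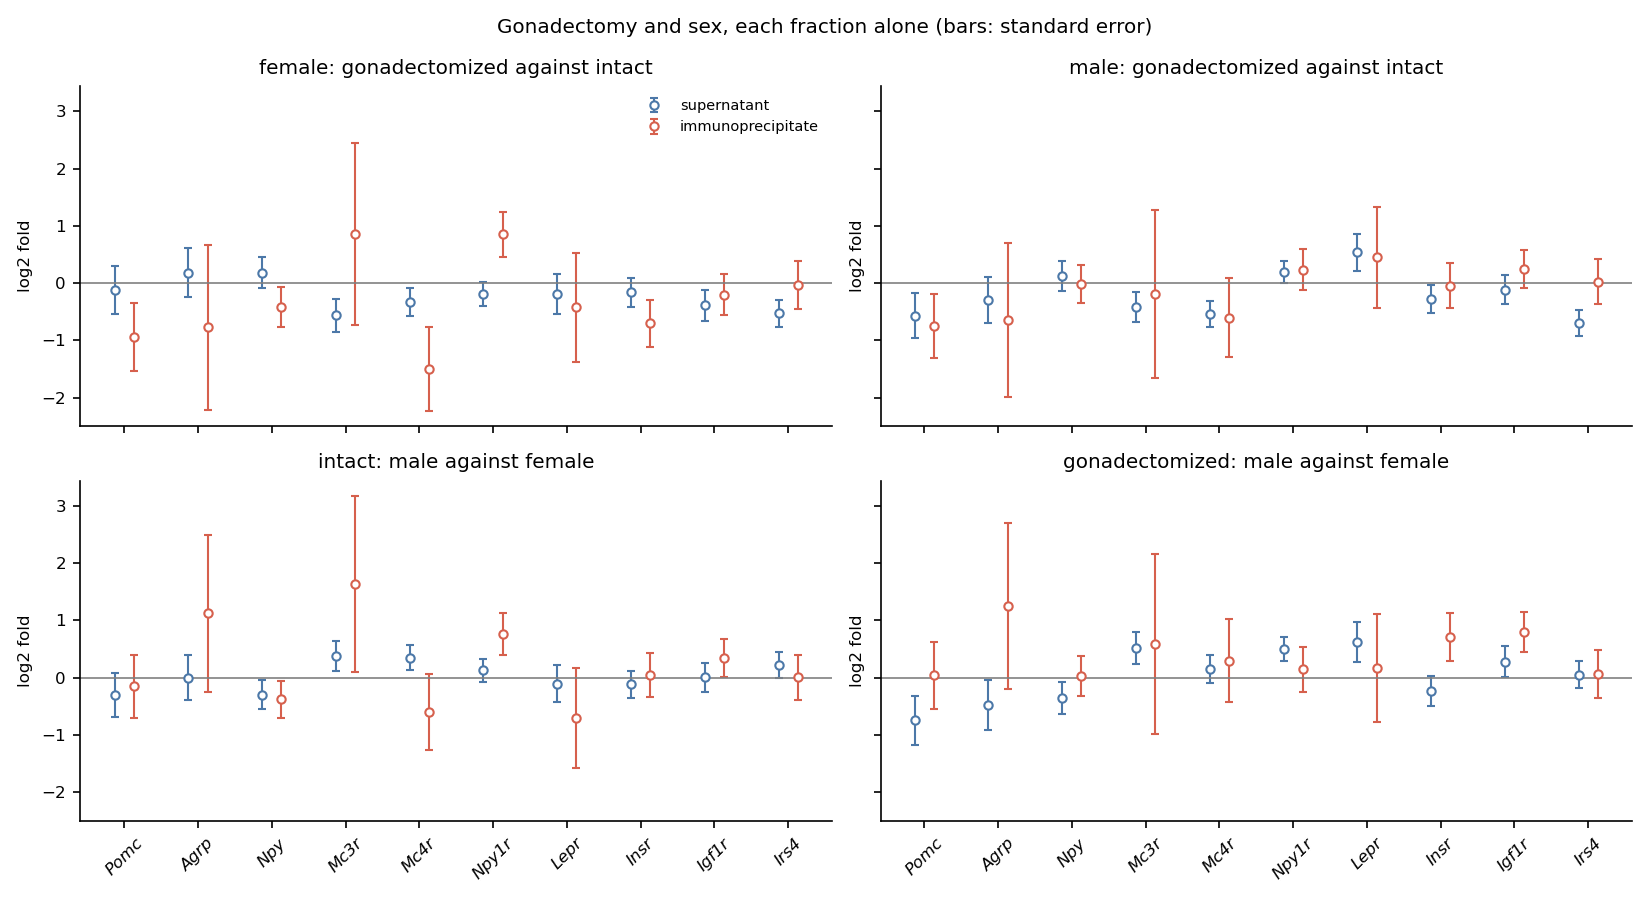
log2 fold (y axis; bars, standard error of the fit) of gonadectomized over intact mice (upper panels) and of males over females (lower panels) for each gene, in the supernatant (blue) and the immunoprecipitate (red). No point passed an adjusted p of 0.05, and the bars of the immunoprecipitates are the longer ones, up to 1.58 for Mc3r in females.

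The other genes of the same pathways, 97 in 5 lists, were read between the fractions. Of 87 tested, 9 were higher and 28 lower in the immunoprecipitate, with a median log2 of -0.20, against 21.3% higher, 21.6% lower and a median of -0.06 over all genes. The insulin and IGF list held most of them: 18 of 33 were lower and 2 higher, with a median of -0.29. Among the lower ones were Gsk3a (log2 -0.98 ± 0.08 SE, adjusted p = 1.60e-09) and Gsk3b (-0.95 ± 0.11), kinases that insulin signalling inhibits, and Grb10 (-0.70 ± 0.11), an adaptor that restrains the insulin receptor. Higher were Irs1 (log2 0.95 ± 0.17 SE, adjusted p = 6.84e-05), at 18.5 ± 9.02 against 9.30 ± 1.06 CPM (SD, n = 13) and higher in 12 of 13 pools, and Shc1 (log2 0.55 ± 0.15 SE, adjusted p = 0.00528). Irs1 and Irs4, both docking proteins of the same receptors, thus moved in opposite directions, and Irs2 did not pass (log2 -0.08 ± 0.10 SE, adjusted p = 0.553). In libraries 11 to 30 alone Irs1, Shc1 and the 3 lower genes named here passed as well, Irs1 at 1.13 and Gsk3a at -0.86. In the same comparison 6 of 10 endothelial markers were higher (median log2 0.996) and 10 of 10 oligodendrocyte markers lower (median -0.81), and their part in the lists' values was not tested.

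In the leptin list 2 of 11 tested genes were higher and 4 lower (median -0.25). The higher ones were Ptpn1 (log2 1.05 ± 0.10 SE, adjusted p = 1.63e-08), which encodes the phosphatase that dephosphorylates Jak2, at 123 ± 30.8 against 58.8 ± 7.64 CPM and higher in 13 of 13 pools, and Socs3 (log2 0.83 ± 0.24 SE, adjusted p = 0.00633), a feedback inhibitor of leptin signalling, higher in 11 of 13. Among the lower ones were Sh2b1 (log2 -0.52 ± 0.06 SE, adjusted p = 4.66e-07), an adaptor of Jak2, Ptpn11, Stat5b and Leprotl1. Stat3 (log2 -0.20 ± 0.09 SE, adjusted p = 0.0716) and Jak2 (log2 -0.25 ± 0.17 SE, adjusted p = 0.260) did not pass. Ptpn1 and Socs3 passed in the later libraries alone too (log2 1.07 and 0.99), where Lepr did not. In the melanocortin list 1 of 16 was higher and 3 lower (median -0.20). The higher one was Pcsk1n, an inhibitor of the convertase that cuts proopiomelanocortin (log2 0.45 ± 0.15 SE, adjusted p = 0.0172), and the lower ones were Mgrn1, Sdc3 and Pcsk2. Of the NPY list 3 genes were tested, and the lowest adjusted p was that of the receptor Npy2r (log2 -0.40 ± 0.18 SE, adjusted p = 0.0704).

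Of 24 tested genes of other metabolic signals 4 were higher and 3 lower (median -0.19). Ucp2, a mitochondrial carrier, was higher in 13 of 13 pools (log2 0.60 ± 0.10 SE, adjusted p = 4.50e-05). The adiponectin receptors Adipor1 (log2 0.29 ± 0.08 SE, adjusted p = 0.00393) and Adipor2 (log2 0.42 ± 0.15 SE, adjusted p = 0.0308) were higher too. Fgfr1 fell (log2 -1.17 ± 0.15 SE, adjusted p = 1.04e-06) and so did 2 genes of low level, the ghrelin receptor Ghsr (log2 -2.74 ± 0.61 SE, adjusted p = 8.11e-04) and Klb (log2 -1.90 ± 0.76 SE, adjusted p = 0.0477). In the comparisons of gonadectomy and sex, and in the 3 changes of enrichment, the lowest adjusted p of the 87 list genes was 0.108. The enrichment of 7 of 88 list genes differed between early and later intact pools, 2 of them higher in the early pools and 5 lower. That is near the share of all genes in this comparison, 7.83%. Of the genes named here these were Pcsk1n (log2 0.79 ± 0.20 SE, adjusted p = 0.0181), Ucp2 (log2 0.61 ± 0.18 SE, adjusted p = 0.0422) and Klb (log2 -6.30 ± 1.86 SE, adjusted p = 0.0422).

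**Figure D5:**
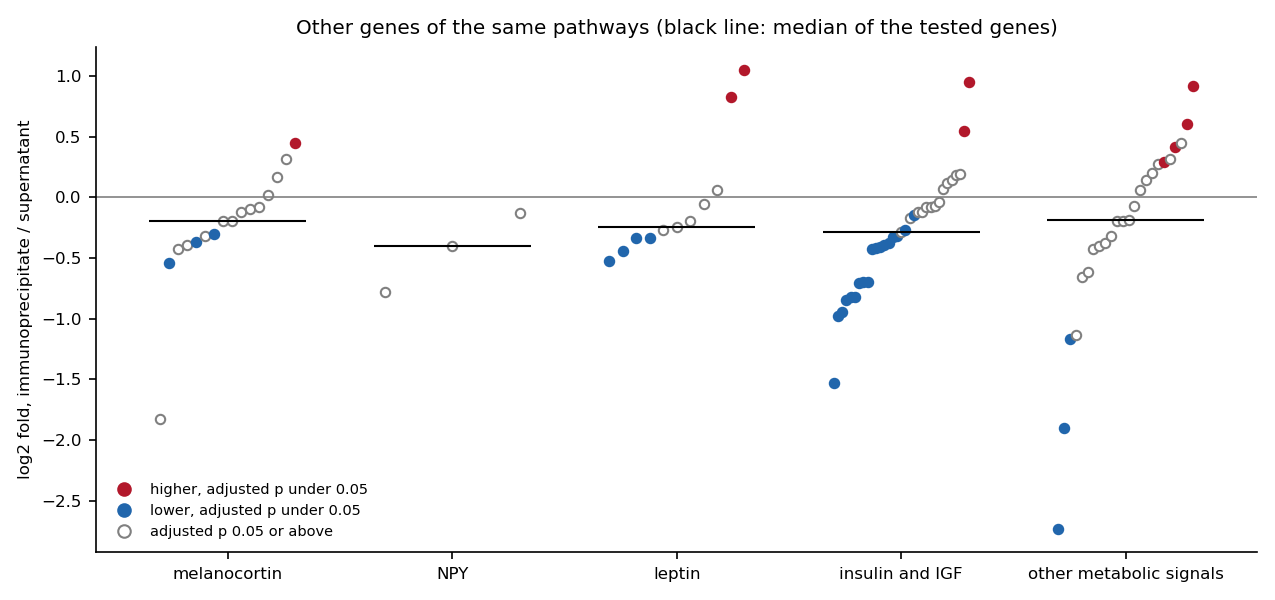
log2 fold of immunoprecipitate over supernatant (y axis) of each tested gene in the 5 pathway lists (x axis), red and blue where it passed in the higher or lower direction and open where it did not; black lines are medians. In the insulin and IGF list 18 of 33 genes are blue.

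For each member at 1 CPM or more, the genes most like it over the 13 supernatants were ranked by Pearson's r of log2 CPM among 12793 genes. These values are descriptions: the pools share a tissue, a depth range and the numbering. For the ligands, those nearest to Pomc were Samd14 (0.8998), Hirip3 (0.890) and Clasrp (0.886), and among those nearest to Npy were Lypd1 (0.921) and Ctcf (0.917). For the receptors of these ligands, Mc3r ran with Eprs (0.929), Ttc13 (0.926) and Fam189a2 (0.920), Mc4r with Vps13b (0.919), Xkr4 (0.911) and Cdh6 (0.904) and Npy1r with Cadm2 (0.963), Mal (0.946) and Gpr155 (0.939). Lepr ran with Rbp4 (0.965), Cp (0.959) and Loxl1 (0.9501), of which Rbp4 encodes the plasma carrier of retinol and Cp ceruloplasmin. In insulin and IGF signalling, Insr ran with Miat (0.955), Acvr2b (0.949) and Trrap (0.948), Igf1r with Scn8a (0.960) and Tpra1 (0.957) and Irs4 with Eif2c2 (0.957), Ubr3 (0.924) and Gspt2 (0.921). Agrp was below the level at which genes were ranked.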

How the data were processed

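RNA of tagged ribosomes and of the remaining lysate was sequenced from preoptic area punches of 13 pools of mice, giving 26 libraries, and each pool is a separate sample of its group. The authors deposited 1 table of estimated counts of fragments per gene, not scaled to depth and attributed by its name to Cuffdiff, of which the submitters' processing notes give version 2.1.1. Those notes also name Cufflinks, the aligners Bowtie2 2.1.0 and TopHat2 2.0.9, FastQC and build mm10. Which annotation was used, and how reads with several matches were handled, is not given in the sources used here. Per the labels' protocols, libraries came from a SMART-Seq kit that does not mark strand.

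Estimated counts were rounded to whole numbers (1.46% of all values were not whole, none of the members'). All genes were fitted in R 4.3.3 with edgeR 4.0.16 (limma 3.58.1): TMM scaling, filterByExpr (minimum count 10, total 15), the quasi-likelihood test and Benjamini-Hochberg adjustment at 0.05. Fractions were compared in 1 fit over all 8 groups, and gonadectomy and sex within each fraction. CPM are per effective library size, and ratios of a pool use log2(CPM + 0.5). Total counts were 27217253 to 56668582, and precision is limited where a member's lowest library held few counts (0 for Agrp, 2 for Mc3r, 22 for Lepr, 29 for Mc4r). For gonadectomy and sex within a fraction, the p-values measure the spread between pools. In the fit over all 8 groups, which has no pool block, they rest on the spread of libraries within groups, shared by both fractions. Fitted alone, the fractions had common coefficients of variation by edgeR of 0.181 (supernatants) and 0.560 (immunoprecipitates).

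The fractions of a pool come from the same mice, and their deviations from the group means correlated at 0.0121 to 0.285, over 0.1 in 8 of 13 pools, so the pool was the block of an alternative. Between intact females and intact males, same-numbered samples deviated together in every pair (0.421 to 0.580 in the supernatants, 0.130 to 0.347 in the immunoprecipitates). The replicate number was therefore the block of an alternative within each fraction. Those fits hold every condition, so the block also joined same-numbered samples of the other conditions. Replicates 0 and 1 of both intact groups are numbered 1 to 10. Other alternatives were DESeq2 1.42.0, RLE size factors, no filter, leaving out each library, libraries 11 to 30 alone and a numbering term. Libraries 1 to 10 alone and the comparison of early with later pools were chosen after seeing the data. The scripts were tested on simulated data. The members and lists were chosen with earlier results of these data known. All 10 members are described. Of each pathway list, called genes are named, at most 4 per direction in order of p, and any other gene named was chosen after its values were seen, as were the list genes that did not pass. Of like genes, the 3 with the highest r are named, among genes of at least 1 CPM whose symbols are not predicted-gene symbols. A few genes that these rules would name are not reported here.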

Additional observations from a re-analysis of the deposited data

Results flagged for a closer look

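The gap of the highest or lowest library to its neighbour was set against the range of the group in 20 groups of 4 values. These were the 10 members in both fractions of intact males. The other conditions, with 3 pools each, were not screened. In 3 of the groups a library stood apart. Chance alone gives about 1 such flag in 20 groups. In the supernatants of intact males, Pomc was highest in replicate 0 at 11.9 CPM, with the next library at 5.07 CPM. In the same library Agrp, which overlaps other genes, was highest at 0.959 CPM, with the next at 0.537 CPM. Among the immunoprecipitates of intact males, Insr was highest in replicate 1 at 40.4 CPM, with the next library at 16.96 CPM. That library also had the lowest Irs4, at 10.7 CPM, and the highest summed pituitary markers, at 5.87 CPM.

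The enrichment of Mc3r differed between intact pools numbered 1 to 10 and 11 to 30, by a log2 of -4.30 ± 1.22 SE (adjusted p = 0.0354, edgeR's quasi-likelihood test with Benjamini-Hochberg adjustment), with 4 pools against 3. The call was kept in some and lost in others of the alternatives of this comparison that left out 1 library. None left out a library of the later pool of intact females, replicate 2, since its groups held no other. They cannot show whether the Mc3r difference rests on that pool.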

How the results depend on the processing

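Leaving out 1 library at a time gave 3240 values of Gnrh1 and the members other than Mc4r, of which 35 lost and 22 gained a call. The other settings gave 950 values of the same genes, of which 15 lost and 8 gained a call. No called value among these changed direction. Mc4r is also not counted in the numbers of members called without 1 library, given below. In libraries 11 to 30 alone, members called fell from 5 to 0 over all conditions, from 1 to 0 in intact females and from 1 to 0 in intact males, and rose from 0 to 2 in orchidectomized males; that fit holds 18 of 26 libraries, with 1 pool left in intact females, assumed to vary like the other groups, and 2 in intact males. DESeq2 called 2 members in intact females (Mc3r and Npy1r) and 2 in intact males (Irs4 and Pomc). As a block within a fraction, the replicate number changed no call of a member. With the pool as a block 2 were called in intact males (Irs4 and Pomc) and 0 in the comparison of early with later pools, and that block changed no other call of a member. Leaving out 1 library gave 4 to 6 members over all conditions, 0 to 3 in intact females, 0 to 3 in intact males, 0 to 1 in ovariectomized females, 0 to 2 for early against later pools, and 0 to 1 for gonadectomy in female supernatants and for sex in gonadectomized supernatants, both at 1 only without ovariectomized female replicate 2. Over all genes, enrichment called 7167 genes, and 4606 in libraries 11 to 30 alone. Likewise it called 3005 and 27 in intact females, 4325 and 1356 in intact males, 1050 and 1985 in ovariectomized females, and 1782 and 2954 in orchidectomized males. Leaving out 1 library gave 1223 to 4930 in intact females, 589 to 1220 in ovariectomized females and 986 to 2109 in orchidectomized males. Early against later pools called 1380 genes, 890 with the block and 680 to 2467 without 1 library. Sex in gonadectomized supernatants called 7 genes, 1257 by DESeq2, 1080 with the numbering as a term, 269 in libraries 11 to 30 and 5 to 2894 without 1 library. Gonadectomy in female supernatants called 2, 8 by DESeq2 and 1 to 505 without 1 library. Without 1 library the change of enrichment reached 296 genes for gonadectomy in females (0 with all) and 95 for sex (1 with all), and the other counts for gonadectomy and sex were 30 or fewer under every setting run. With the replicate number as a block, sex in intact mice called 5 genes in the supernatants (7 without the block) and 2 in the immunoprecipitates (4 without). In the other pairs of conditions, samples with the same replicate number share only a number, with deviations correlated at -0.205 to 0.311 in the supernatants and -0.0882 to 0.0772 in the immunoprecipitates. Depth limits Agrp, Mc3r, Lepr and Mc4r, whose immunoprecipitates hold as few as 0, 2, 22 and 29 counts.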
